A study of Mus musculus with 6 samples.

Results

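The genomic loci of 4 ion channel genes, Cacna1c, Cacna2d1, Kcnq3 and Kcnma1, were examined in a crosslinking and immunoprecipitation sequencing (CLIP-seq) study of polypyrimidine tract binding proteins in newborn mouse cortex. The members are the distinct read intervals (unique chromosome, strand, start and end) whose midpoint lies on the gene's strand inside fixed limits of the mm9 genome: Cacna1c from 118.54 to 119.14 Mb of chromosome 6 (minus strand), Cacna2d1 from 15.45 to 15.87 Mb of chromosome 5 (plus strand), Kcnq3 from 65.83 to 66.12 Mb of chromosome 15 (minus strand) and Kcnma1 from 24.12 to 24.81 Mb of chromosome 14 (minus strand). Of 940882 distinct intervals in the series, 4856 met this rule. Cacna1c held 2663 of them, Kcnq3 907, Kcnma1 805 and Cacna2d1 481.

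The study immunoprecipitated nuclear RNA complexes from cerebral cortex of BL6/129Sv mice on postnatal day 1, after ultraviolet irradiation at 400 mJ/cm2. RNA was recovered from membrane between 80 and 110 kDa, heavier than FLAG-PTBP1 (60 kDa) or PTBP2 (58 kDa) alone. The 6 libraries form 5 groups. FLAG antibody was used in cortex with Rosa-PTBP1, Emx1-cre and PTBP2 loxp/loxp alleles (FLAG Rosa-PTBP1 loxP, 1 library), in cortex with Rosa-PTBP1 and Emx1-cre (FLAG Rosa-PTBP1, 1 library) and in wild-type cortex (FLAG WT 1 and FLAG WT 2). A PTBP2 polyclonal antibody was used in cortex with Rosa-PTBP1 and Emx1-cre (PTBP2 Rosa-PTBP1, 1 library) and in wild-type cortex (PTBP2 WT, 1 library). Rosa-PTBP1 is the transgene for FLAG-tagged PTBP1, and Emx1-cre drives recombination in the dorsal forebrain, in excitatory neurons and glia and not in interneurons. Every Rosa-PTBP1 library therefore differs from wild type by transgene and Cre together. Wild-type cortex makes no FLAG protein, so both FLAG WT libraries measure the background of the FLAG procedure. The labels do not say whether animals were pooled, or whether the FLAG WT libraries came from separate animals.

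PTBP1 and PTBP2 bind pyrimidine-rich stretches of nuclear RNA, mostly in introns, and are known above all for keeping neighbouring exons out of the mature transcript. PTBP1 is the form of progenitors and non-neuronal cells, and PTBP2 replaces it in young neurons. The 4 genes all shape neuronal excitability. Cacna1c encodes the pore-forming subunit of an L-type voltage-gated calcium channel, Cacna2d1 an auxiliary calcium channel subunit to which gabapentin binds, Kcnq3 a subunit of the potassium channel of the M-current, and Kcnma1 the pore-forming subunit of the large-conductance (BK) potassium channel, opened by calcium and voltage.

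Cacna1c is a known splicing target of these proteins. It carries a pair of mutually exclusive exons that encode alternative versions of a pore-lining segment of the first domain, and PTB proteins repress 1 of them. The pair is shown because it is the splicing event for which Cacna1c binding is best known. Each exon is 104 bases long, and the intron between them is 290 bases. Capitals mark the 32 positions at which the exons differ, with 72 positions (69.2%) alike. Of 27 annotated transcripts 10 hold the upstream exon, 13 the downstream exon and 0 both. The sequences come from the GENCODE transcripts of the GRCm38 build, minus strand, 5′ to 3′.
Cacna1c upstream exon, chr6:118742265-118742368: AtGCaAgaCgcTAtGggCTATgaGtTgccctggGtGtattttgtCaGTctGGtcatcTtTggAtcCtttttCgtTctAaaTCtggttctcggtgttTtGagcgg
Cacna1c downstream exon, chr6:118741871-118741974: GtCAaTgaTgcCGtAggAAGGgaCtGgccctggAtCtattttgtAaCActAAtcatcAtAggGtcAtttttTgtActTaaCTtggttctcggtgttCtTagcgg
These coordinates are of GRCm38 and were not converted to mm9, the build of every interval position given here. No mm9 gene model or genome sequence was used here, so no interval was placed on these exons or called exonic, intronic or untranslated.

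The libraries differed in depth and form. They held 265953 distinct intervals in FLAG Rosa-PTBP1 loxP, 351602 in FLAG Rosa-PTBP1, 74416 in PTBP2 Rosa-PTBP1 and 155447 in PTBP2 WT, against 88327 in FLAG WT 1 and 26665 in FLAG WT 2. Overlapping or abutting intervals were joined into sites, and a site of 5 or more distinct intervals was called stacked. Stacked sites held 53.5% to 87.8% of the intervals of the 4 PTBP libraries, against 3.32% in FLAG WT 1 and 39.6% in FLAG WT 2. PTBP2 Rosa-PTBP1 was nearly empty on 7 chromosomes, among them chromosomes 5 and 6 with Cacna2d1 and Cacna1c. It held 399 and 507 intervals there, against 7900 and 8727 in PTBP2 WT. Its values at these 2 loci are given but not compared. Read names show 3 sequencing runs: run A held all intervals of FLAG Rosa-PTBP1 loxP, FLAG Rosa-PTBP1 and FLAG WT 2, while runs B and C held PTBP2 Rosa-PTBP1 (61.0% in run B), PTBP2 WT (30.3% in run B) and FLAG WT 1 (94.99% in run B). The lists hold intervals called significant by the authors, at a level not given in the sources used here. A region listed at 0 may therefore still have had reads, so folds against such regions are left out.

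The limits enclosed signal of the gene's own strand. No interval lay on the opposite strand of any locus in the 4 PTBP libraries, and the wild-type FLAG libraries held 2 each, all in Cacna1c. Summed over the loci, the outermost 50 kb inside the limits held 176 intervals in FLAG Rosa-PTBP1 loxP, 440 in FLAG Rosa-PTBP1, 26 in PTBP2 Rosa-PTBP1 and 54 in PTBP2 WT, against 62 in FLAG WT 1 and 32 in FLAG WT 2. The neighbouring 50 kb outside held 9 in FLAG Rosa-PTBP1 loxP, 1 in FLAG Rosa-PTBP1, 0 in PTBP2 Rosa-PTBP1 and 4 in PTBP2 WT, against 12 in FLAG WT 1 and 6 in FLAG WT 2.

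Per length, Cacna1c was the densest locus in the 3 PTBP libraries in which its chromosome was filled, and FLAG WT 1 was nearly even over the loci. FLAG Rosa-PTBP1 loxP held 0.567 intervals per 1000 of the library and per 100 kb in Cacna1c, 0.302 in Kcnq3, 0.131 in Cacna2d1 and 0.0899 in Kcnma1. FLAG Rosa-PTBP1 held 0.589 in Cacna1c, 0.507 in Kcnq3, 0.129 in Cacna2d1 and 0.112 in Kcnma1. PTBP2 WT held 0.442 in Cacna1c, 0.149 in Kcnq3, 0.0689 in Cacna2d1 and 0.104 in Kcnma1. In FLAG WT 1 the 4 loci lay between 0.210 and 0.237, and in FLAG WT 2 between 0.116 and 0.206. Kcnq3 was thus second in both transgene FLAG libraries and in PTBP2 WT. In PTBP2 Rosa-PTBP1, Kcnma1 stood above Kcnq3, at 0.189 and 0.167. The transgene FLAG libraries and PTBP2 WT ordered Cacna2d1 and Kcnma1 differently.

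**Figure D1:**
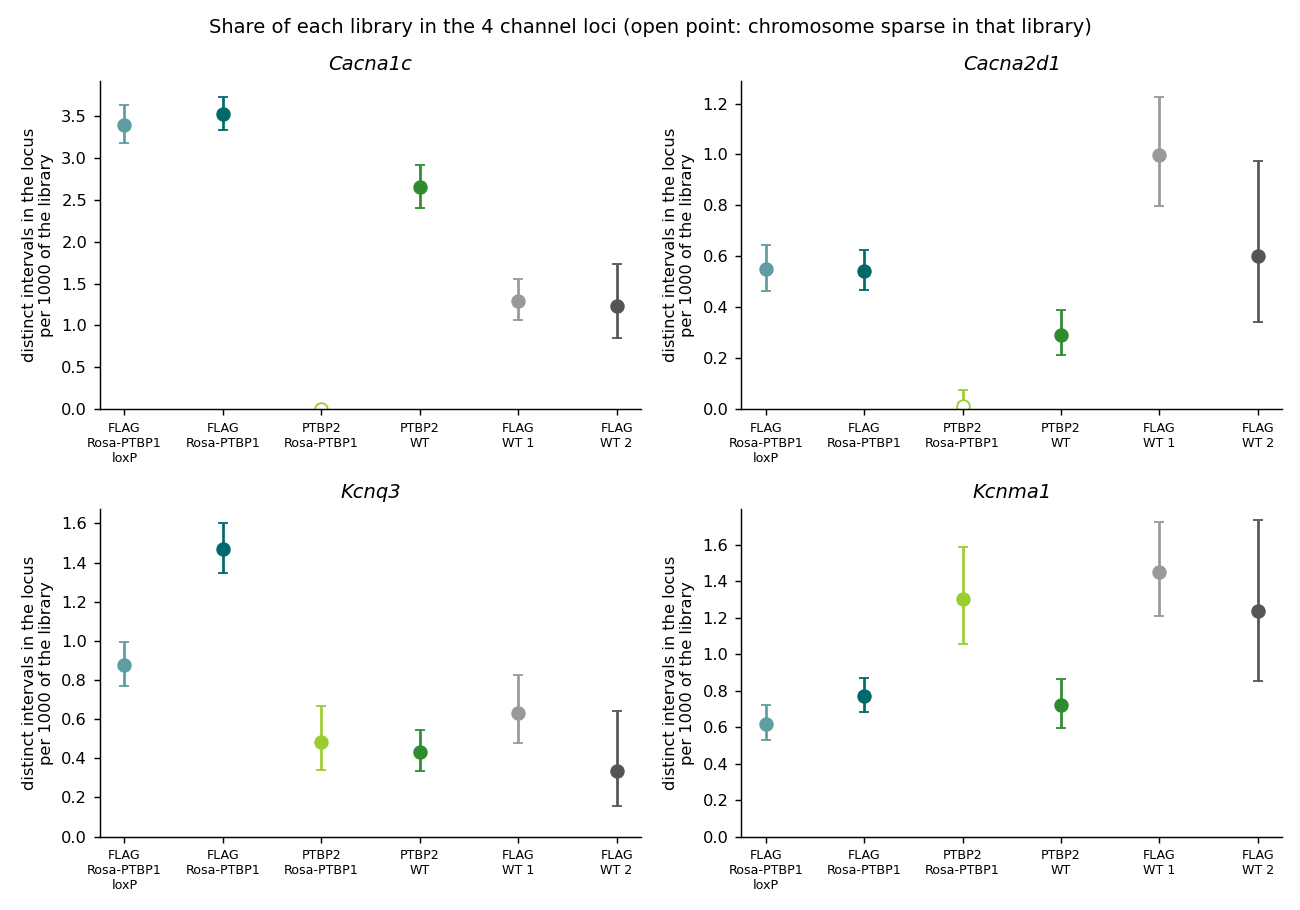
Distinct intervals in each locus per 1000 intervals of the library (y axes, one scale per locus), for the 6 libraries; bars are exact Clopper-Pearson 95% intervals of counting error, and open points mark a chromosome that was nearly empty in that library. The 3 filled PTBP libraries lay above both FLAG WT libraries at Cacna1c, and FLAG Rosa-PTBP1 lay highest at Kcnq3.

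At Cacna1c, the L-type channel pore gene, the share was higher in the PTBP libraries than in both background libraries. The locus held 905 intervals in FLAG Rosa-PTBP1 loxP, 1243 in FLAG Rosa-PTBP1, 0 in PTBP2 Rosa-PTBP1 and 412 in PTBP2 WT, against 114 in FLAG WT 1 and 33 in FLAG WT 2. Per 1000 intervals of the library this was 3.40 (95% interval 3.19 to 3.63) in FLAG Rosa-PTBP1 loxP, 3.54 (3.34 to 3.74) in FLAG Rosa-PTBP1 and 2.65 (2.40 to 2.92) in PTBP2 WT, against 1.29 (1.06 to 1.55) in FLAG WT 1 and 1.24 (0.852 to 1.74) in FLAG WT 2. The 2 transgene FLAG libraries lay within each other's counting intervals, PTBP2 WT lay below both, and the FLAG WT pair lay together. PTBP2 Rosa-PTBP1 listed 0 on its sparse chromosome, which allows up to 0.0403 per 1000 by counting error alone. In whole cortex a share depends on how many cells express the gene, on the RNA per cell and on binding, and these cannot be told apart here.

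The Cacna1c intervals were concentrated in a short stretch. The stretch from 150 to 300 kb after the 5′ limit, of 600 kb in all, held 81.8% of them in FLAG Rosa-PTBP1 loxP (740 of 905), 75.8% in FLAG Rosa-PTBP1 (942 of 1243) and 85.0% in PTBP2 WT (350 of 412), against 55.3% in FLAG WT 1 (63 of 114) and 57.6% in FLAG WT 2 (19 of 33). Within it, the 4 kb from 118960001 to 118964000, chosen as the densest, held 189 intervals (20.9% of the locus) in FLAG Rosa-PTBP1 loxP, 287 (23.1%) in FLAG Rosa-PTBP1 and 185 (44.9%) in PTBP2 WT, against 10 (8.77%) in FLAG WT 1 and 0 in FLAG WT 2. These 4 kb are 0.667% of the locus length and begin 176 kb from its 5′ limit. The 100-kb window around it, from 118.9 to 119 Mb, ranked 65 among the 6879 windows with any interval in FLAG Rosa-PTBP1 loxP, 64 among 6710 in FLAG Rosa-PTBP1 and 71 among 8018 in PTBP2 WT, against 80 among 12291 in FLAG WT 1 and 132 among 5996 in FLAG WT 2. The window thus ranked high in the background as well. FLAG WT 1 also held a larger part of its Cacna1c intervals in the 4 kb (8.77%) than their part of the length (0.667%).

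**Figure D2:**
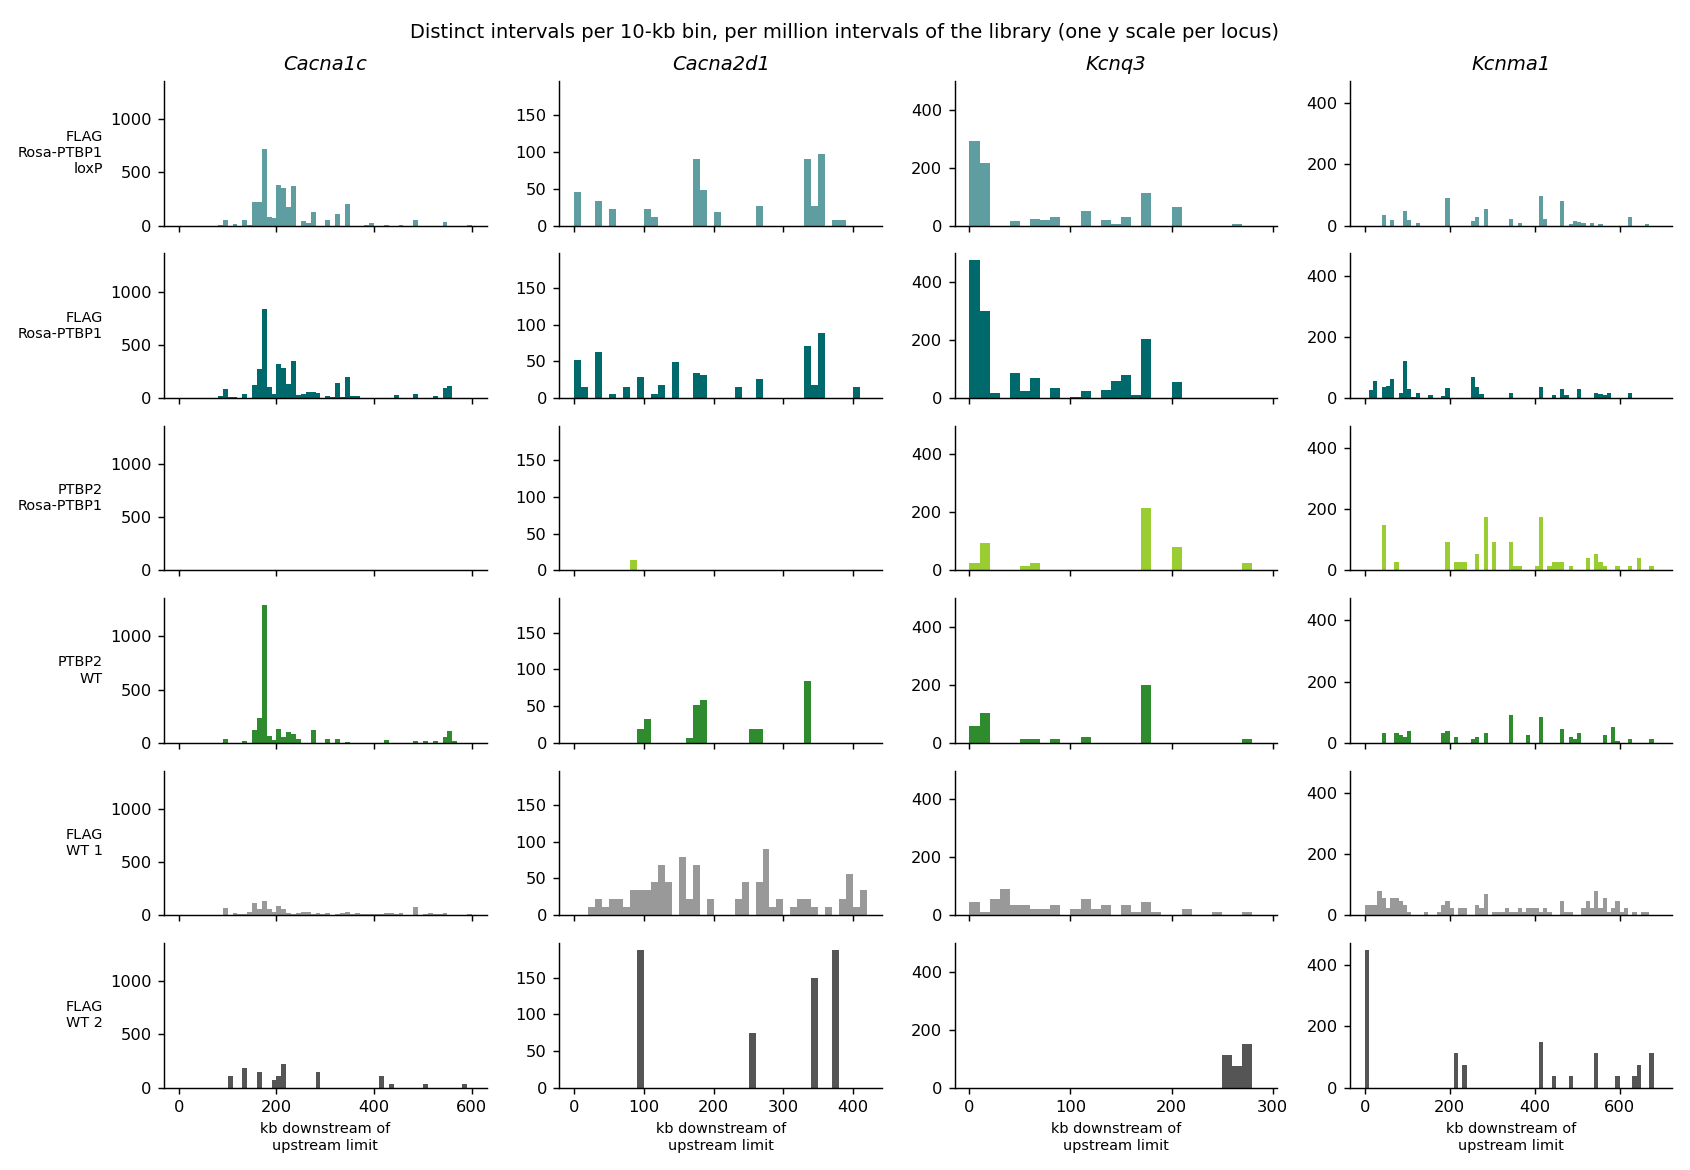
Distinct intervals per 10-kb bin, per 1000000 intervals of the library (y axes, one scale per locus), against the distance from the 5′ limit of each locus in kb (x axes), for the 6 libraries from top to bottom. The Cacna1c peak near 180 kb and the Kcnq3 peak near 172 kb recur in the PTBP libraries in which the chromosome was filled, and the Kcnq3 cluster at the 5′ limit is tallest in FLAG Rosa-PTBP1.

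Most of the fullest Cacna1c sites lay in that cluster, which was itself chosen by the same intervals, so nothing is read from their place. Sites below are unions of the intervals of all 6 libraries, named by their mm9 positions. The site from 118960697 to 118960918 had 25 intervals in FLAG Rosa-PTBP1 loxP, 43 in FLAG Rosa-PTBP1, 0 in PTBP2 Rosa-PTBP1 and 27 in PTBP2 WT, against 0 in both FLAG WT libraries. The site from 118962056 to 118962376 had 22 in FLAG Rosa-PTBP1 loxP, 42 in FLAG Rosa-PTBP1, 0 in PTBP2 Rosa-PTBP1 and 28 in PTBP2 WT, against 3 in FLAG WT 1 and 0 in FLAG WT 2. The site from 118961063 to 118961266 had 29 in FLAG Rosa-PTBP1 loxP, 32 in FLAG Rosa-PTBP1, 0 in PTBP2 Rosa-PTBP1 and 15 in PTBP2 WT, against 4 in FLAG WT 1 and 0 in FLAG WT 2. All 3 were filled by both proteins. They were chosen by their PTBP intervals, so nothing is read from their low background counts. Per 1000 intervals of the locus, the site from 118961063 took 35.09 in FLAG WT 1, from 4 intervals. It took 32.04 in FLAG Rosa-PTBP1 loxP, 25.74 in FLAG Rosa-PTBP1 and 36.41 in PTBP2 WT. The site from 118962056 took 26.32 in FLAG WT 1, from 3 intervals, against 24.31, 33.79 and 67.96 in the same order. The site from 118960697 had 0 in FLAG WT 1. The site from 118960240 to 118960392 had 19 intervals in FLAG Rosa-PTBP1 loxP, 27 in FLAG Rosa-PTBP1, 0 in PTBP2 Rosa-PTBP1 and 13 in PTBP2 WT, against 0 in both FLAG WT libraries. Further downstream, 203 kb from the 5′ limit, the site from 118937111 to 118937264 had 34 in FLAG Rosa-PTBP1 loxP, 34 in FLAG Rosa-PTBP1, 0 in PTBP2 Rosa-PTBP1 and 12 in PTBP2 WT, against 0 in both FLAG WT libraries; it was the fullest Cacna1c site of the loxP library. Far from the cluster, the site from 118594204 to 118594364, 546 kb from the 5′ limit, had 10 in FLAG Rosa-PTBP1 loxP, 25 in FLAG Rosa-PTBP1, 0 in PTBP2 Rosa-PTBP1 and 9 in PTBP2 WT, against 0 in both FLAG WT libraries.

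At Cacna2d1, the auxiliary calcium channel subunit gene, the PTBP libraries did not exceed the background by share. The locus held 146 intervals in FLAG Rosa-PTBP1 loxP, 191 in FLAG Rosa-PTBP1, 1 in PTBP2 Rosa-PTBP1 and 45 in PTBP2 WT, against 88 in FLAG WT 1 and 16 in FLAG WT 2. Per 1000 intervals this was 0.549 (0.464 to 0.646) in FLAG Rosa-PTBP1 loxP, 0.543 (0.469 to 0.626) in FLAG Rosa-PTBP1 and 0.289 (0.211 to 0.387) in PTBP2 WT, against 0.996 (0.799 to 1.23) in FLAG WT 1 and 0.600 (0.343 to 0.974) in FLAG WT 2. FLAG WT 1 lay highest, and the transgene FLAG libraries lay inside the interval of FLAG WT 2.

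Where its chromosome was filled, the Cacna2d1 intervals of the PTBP libraries were mostly stacked, but less so than the whole libraries. Stacked sites held 80.1% of its intervals in FLAG Rosa-PTBP1 loxP, 79.1% in FLAG Rosa-PTBP1 and 66.7% in PTBP2 WT, against 5.68% in FLAG WT 1 and 31.25% in FLAG WT 2 (5 of 16). In the same order, the whole libraries stood at 85.2%, 87.8% and 75.1%, against 3.32% and 39.6%. The site from 15788247 to 15788357 had 12 intervals in FLAG Rosa-PTBP1 loxP, 11 in FLAG Rosa-PTBP1, 0 in PTBP2 Rosa-PTBP1 and 10 in PTBP2 WT, against 0 in both FLAG WT libraries. The site from 15636150 to 15636222 had 9 in FLAG Rosa-PTBP1 loxP, 11 in FLAG Rosa-PTBP1, 0 in PTBP2 Rosa-PTBP1 and 9 in PTBP2 WT, against 0 in both FLAG WT libraries. These 2 sites were held by both proteins at similar counts, although PTBP2 WT was the shallower library. The other full sites were held mainly by FLAG. The site from 15489650 to 15489809 had 9 in FLAG Rosa-PTBP1 loxP, 17 in FLAG Rosa-PTBP1 and 0 in both PTBP2 libraries, against 2 in FLAG WT 1 and 0 in FLAG WT 2. The site from 15802678 to 15802756 had 8 in FLAG Rosa-PTBP1 loxP and 17 in FLAG Rosa-PTBP1 and was listed at 0 in the other 4 libraries. The site from 15620374 to 15620432 had 7 in FLAG Rosa-PTBP1 loxP, 9 in FLAG Rosa-PTBP1, 0 in PTBP2 Rosa-PTBP1 and 2 in PTBP2 WT, against 0 in both FLAG WT libraries.

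At Kcnq3, the M-current subunit gene, FLAG Rosa-PTBP1 stood above every other library. The locus held 233 intervals in FLAG Rosa-PTBP1 loxP, 517 in FLAG Rosa-PTBP1, 36 in PTBP2 Rosa-PTBP1 and 67 in PTBP2 WT, against 56 in FLAG WT 1 and 9 in FLAG WT 2. Per 1000 intervals this was 0.876 (0.767 to 0.996) in FLAG Rosa-PTBP1 loxP, 1.47 (1.35 to 1.60) in FLAG Rosa-PTBP1, 0.484 (0.339 to 0.670) in PTBP2 Rosa-PTBP1 and 0.431 (0.334 to 0.547) in PTBP2 WT, against 0.634 (0.479 to 0.823) in FLAG WT 1 and 0.338 (0.154 to 0.641) in FLAG WT 2. FLAG Rosa-PTBP1 was highest and clear of FLAG Rosa-PTBP1 loxP, which came next and overlapped FLAG WT 1 in its counting interval. The PTBP2 libraries overlapped each other and both background libraries. The share of PTBP2 Rosa-PTBP1 is raised by its empty chromosomes. On the 13 chromosomes filled in both PTBP2 libraries the order was reversed, at 0.529 in PTBP2 Rosa-PTBP1 and 0.645 in PTBP2 WT.

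The 5′ end of Kcnq3 took a larger part of the transgene FLAG intervals than of the PTBP2 intervals. The first 72.5 kb of the 290 kb held 62.2% of the intervals in FLAG Rosa-PTBP1 loxP (145 of 233, 55.7% to 68.5%), 66.0% in FLAG Rosa-PTBP1 (341 of 517, 61.7% to 70.04%), 33.3% in PTBP2 Rosa-PTBP1 (12 of 36, 18.6% to 51.0%) and 43.3% in PTBP2 WT (29 of 67, 31.2% to 56.0%), against 46.4% in FLAG WT 1 (26 of 56) and 0 of 9 in FLAG WT 2. The 4 kb from 66111001 to 66115000, the densest of the locus and 5 kb from its limit, held 71 in FLAG Rosa-PTBP1 loxP, 155 in FLAG Rosa-PTBP1, 2 in PTBP2 Rosa-PTBP1 and 9 in PTBP2 WT, against 3 in FLAG WT 1 and 0 in FLAG WT 2. That was 30.5% of the locus in FLAG Rosa-PTBP1 loxP, 29.98% in FLAG Rosa-PTBP1, 5.56% in PTBP2 Rosa-PTBP1 and 13.4% in PTBP2 WT.

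A single site carried the largest part of the PTBP2 signal at Kcnq3. The site from 65947580 to 65947943, 172 kb from the 5′ limit, had 30 intervals in FLAG Rosa-PTBP1 loxP, 70 in FLAG Rosa-PTBP1, 16 in PTBP2 Rosa-PTBP1 and 31 in PTBP2 WT, against 1 in FLAG WT 1 and 0 in FLAG WT 2. Per 1000 intervals of the locus it took 129 in FLAG Rosa-PTBP1 loxP, 135 in FLAG Rosa-PTBP1, 444 in PTBP2 Rosa-PTBP1 and 463 in PTBP2 WT. It was the fullest site of all 4 loci, and all 4 PTBP libraries held it. The site from 66102510 to 66102702 was also held by all 4, with 8 in FLAG Rosa-PTBP1 loxP, 28 in FLAG Rosa-PTBP1, 7 in PTBP2 Rosa-PTBP1 and 11 in PTBP2 WT, against 0 in both FLAG WT libraries. In contrast, the site from 66101381 to 66101625 had 12 in FLAG Rosa-PTBP1 loxP and 38 in FLAG Rosa-PTBP1, and was listed at 0 in both PTBP2 and both FLAG WT libraries. The site from 66113442 to 66113620 had 10 in FLAG Rosa-PTBP1 loxP and 34 in FLAG Rosa-PTBP1 and was likewise listed at 0 in the other 4 libraries. The site from 66114224 to 66114329 had 13 in FLAG Rosa-PTBP1 loxP, 15 in FLAG Rosa-PTBP1, 0 in PTBP2 Rosa-PTBP1 and 9 in PTBP2 WT, against 0 in both FLAG WT libraries.

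**Figure D3:**
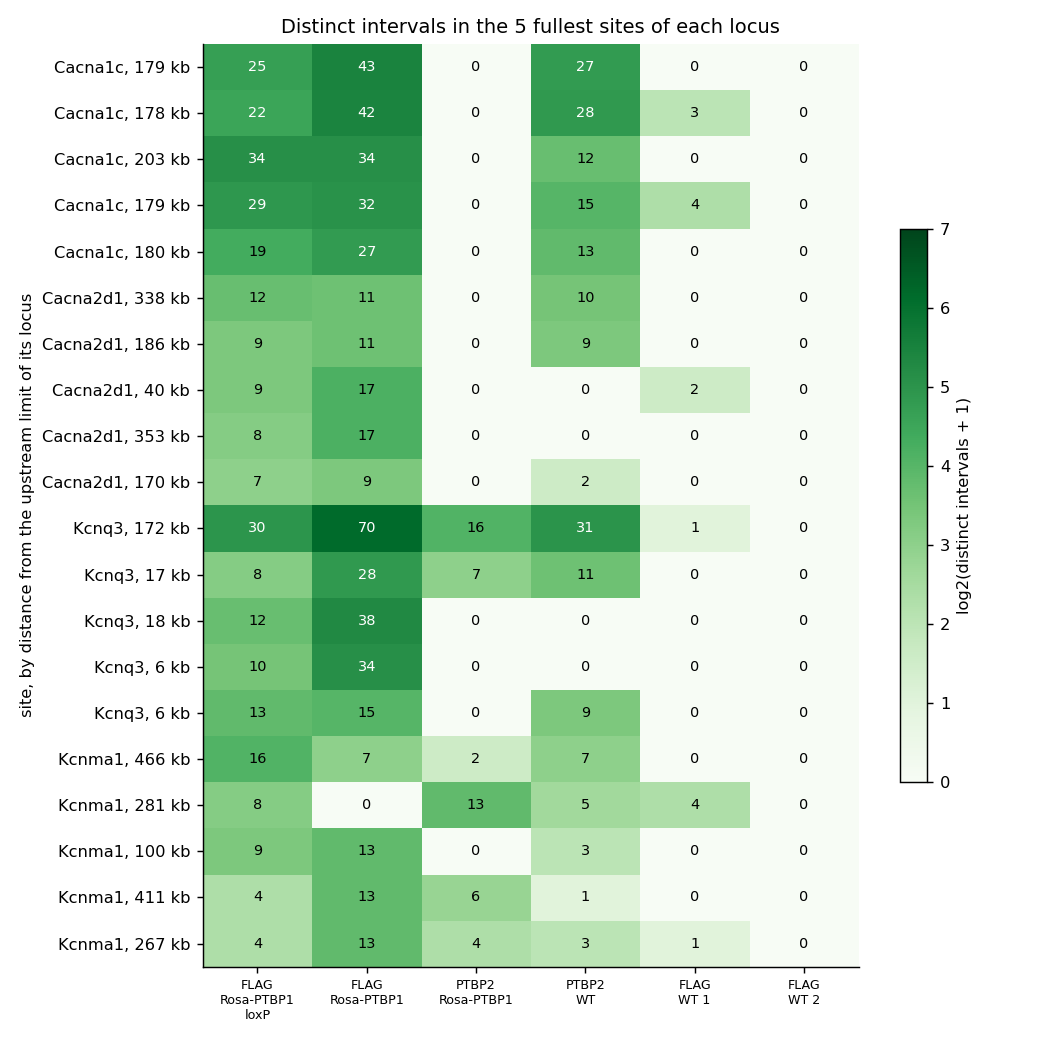
Distinct intervals (numbers in the cells, colour on a log2 scale of intervals + 1) in the 5 fullest sites of each locus, in rows labelled by distance from the 5′ limit in kb, for the 6 libraries in columns. The Kcnq3 site at 172 kb was held by all 4 PTBP libraries, with 70 intervals in FLAG Rosa-PTBP1. Both FLAG WT columns are at or near 0, but the sites were chosen by their intervals in the 4 PTBP libraries, so nothing is read from that.

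At Kcnma1, the BK channel gene, the background libraries and PTBP2 Rosa-PTBP1 had the highest shares. The locus held 165 intervals in FLAG Rosa-PTBP1 loxP, 271 in FLAG Rosa-PTBP1, 97 in PTBP2 Rosa-PTBP1 and 112 in PTBP2 WT, against 128 in FLAG WT 1 and 33 in FLAG WT 2. Per 1000 intervals this was 0.620 (0.529 to 0.723) in FLAG Rosa-PTBP1 loxP, 0.771 (0.682 to 0.868) in FLAG Rosa-PTBP1, 1.30 (1.06 to 1.59) in PTBP2 Rosa-PTBP1 and 0.721 (0.593 to 0.867) in PTBP2 WT, against 1.45 (1.21 to 1.72) in FLAG WT 1 and 1.24 (0.852 to 1.74) in FLAG WT 2. The share of PTBP2 Rosa-PTBP1 is raised by its empty chromosomes, since its intervals lie on fewer of them.

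In every library the Kcnma1 intervals were less stacked than those of the whole library. Stacked sites held 58.2% of its intervals in FLAG Rosa-PTBP1 loxP, 76.0% in FLAG Rosa-PTBP1, 28.9% in PTBP2 Rosa-PTBP1 and 58.9% in PTBP2 WT, against 0 of 128 in FLAG WT 1 and 15.2% in FLAG WT 2. In the same order, the whole libraries stood at 85.2%, 87.8%, 53.5% and 75.1%, against 3.32% and 39.6%. PTBP2 Rosa-PTBP1 had 4 stacked sites at Kcnma1 and 3 at Kcnq3, against 0 in FLAG WT 1 at both loci. On chromosome 14, with Kcnma1, PTBP2 Rosa-PTBP1 held 6388 intervals and FLAG WT 1 4609, and on chromosome 15, with Kcnq3, PTBP2 Rosa-PTBP1 held 3100 and FLAG WT 1 3196. The part of depth in stacking was not tested. The 2 transgene FLAG libraries also differed in where their Kcnma1 intervals lay. The first 172.5 kb of the 690 kb held 20.6% in FLAG Rosa-PTBP1 loxP (34 of 165, 14.7% to 27.6%) and 53.9% in FLAG Rosa-PTBP1 (146 of 271, 47.7% to 59.9%). The stretch from 345 to 517.5 kb held 43.0% in FLAG Rosa-PTBP1 loxP and 16.6% in FLAG Rosa-PTBP1. PTBP2 Rosa-PTBP1 held 13.4% in the first stretch and PTBP2 WT 20.5%, against 33.6% in FLAG WT 1 and 36.4% in FLAG WT 2.

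The fullest Kcnma1 sites were small and varied between libraries. The site from 24343567 to 24343654 had 16 intervals in FLAG Rosa-PTBP1 loxP, 7 in FLAG Rosa-PTBP1, 2 in PTBP2 Rosa-PTBP1 and 7 in PTBP2 WT, against 0 in both FLAG WT libraries. The site from 24529162 to 24529376 had 8 in FLAG Rosa-PTBP1 loxP, 0 in FLAG Rosa-PTBP1, 13 in PTBP2 Rosa-PTBP1 and 5 in PTBP2 WT, against 4 in FLAG WT 1 and 0 in FLAG WT 2. This site was the fullest of PTBP2 Rosa-PTBP1 at the locus, and FLAG Rosa-PTBP1 did not list it. The site from 24710422 to 24710489 had 9 in FLAG Rosa-PTBP1 loxP, 13 in FLAG Rosa-PTBP1, 0 in PTBP2 Rosa-PTBP1 and 3 in PTBP2 WT, against 0 in both FLAG WT libraries. The site from 24398458 to 24398574 had 4 in FLAG Rosa-PTBP1 loxP, 13 in FLAG Rosa-PTBP1, 6 in PTBP2 Rosa-PTBP1 and 1 in PTBP2 WT, against 0 in both FLAG WT libraries. The site from 24542594 to 24542709 had 4 in FLAG Rosa-PTBP1 loxP, 13 in FLAG Rosa-PTBP1, 4 in PTBP2 Rosa-PTBP1 and 3 in PTBP2 WT, against 1 in FLAG WT 1 and 0 in FLAG WT 2. Of the 8 sites that all 4 PTBP libraries held, 6 lay in Kcnma1 and 2 in Kcnq3, the loci on filled chromosomes. Sites with an interval of any PTBP library numbered 129 in Kcnma1 and 104 in Kcnq3. The share of such sites over the series was not computed, so nothing is read from the 8.

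**Figure D4:**
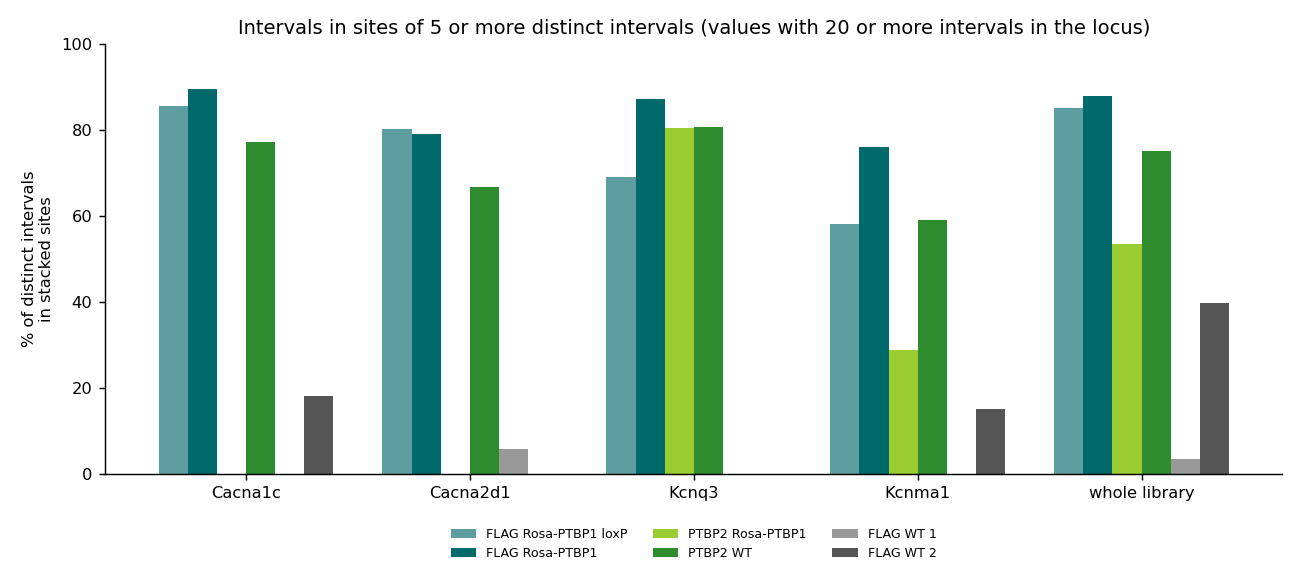
Percent of distinct intervals (y axis, from 0) that lay in sites of 5 or more distinct intervals, in each locus and in the whole library, for libraries with 20 or more intervals in the locus. At Kcnq3 the 4 PTBP libraries reached 69.1% to 87.2%, and FLAG WT 1 was at 0; at Kcnma1 PTBP2 Rosa-PTBP1 was at 28.9%, below the other PTBP libraries.

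Over the 4 loci there were 866 union sites, of which 548 held an interval of a PTBP library and 318 held FLAG WT intervals only. Of 192 sites with 5 or more FLAG Rosa-PTBP1 intervals, 92 were also in FLAG Rosa-PTBP1 loxP, where 48.3% of such sites on 19 chromosomes were. Of the same 192, 44 were in PTBP2 WT, where 31.4% over the series were. FLAG WT 1 held 13 of the 192, where 9.21% over the series were, and FLAG WT 2 held 2, where 2.78% were. Of 56 sites with 10 or more FLAG Rosa-PTBP1 intervals, 28 were listed at 0 in PTBP2 WT, where 46.1% over the series were. These were 13 of 33 in Cacna1c, 4 of 6 in Cacna2d1, 8 of 11 in Kcnq3 and 3 of 6 in Kcnma1. PTBP2 WT was the shallower library, and how much depth adds to these zeros was not tested. Sites with 20 or more PTBP intervals numbered 51, of which 32 lay in Cacna1c, 9 in Kcnq3, 6 in Kcnma1 and 4 in Cacna2d1. Of these 39 held no FLAG WT interval, where 81.5% over the series did not, and 33 were held by both transgene FLAG libraries and PTBP2 WT, where 65.9% were. The sites were chosen by their PTBP intervals, so nothing is read from these last counts.

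Overlap of sites between libraries was close to that of the whole series in some pairs and not in others. Of the FLAG Rosa-PTBP1 loxP sites in the loci, 48.9% (130 of 266, 42.7% to 55.1%) had at least 1 base in common with a FLAG Rosa-PTBP1 site, against 47.4% over all sites of the chromosomes filled in both. Of the FLAG Rosa-PTBP1 sites, 35.3% overlapped a loxP site, against 36.1% over all sites. Of the PTBP2 WT sites, 49.2% (58 of 118, 39.8% to 58.5%) lay on a FLAG Rosa-PTBP1 site, against 38.9% over all sites. Cacna1c alone had 59.7% (40 of 67, 47.0% to 71.5%), Kcnq3 45.5% (5 of 11), Cacna2d1 36.4% (4 of 11) and Kcnma1 31.0% (9 of 29). Between stacked sites of both libraries the overlap was 59.6% (31 of 52, 45.1% to 73.0%) in the loci and 62.6% over all. The PTBP2 WT sites of Cacna1c also lay on background sites more often than over all sites. Of these, 14.9% (10 of 67, 7.40% to 25.7%) overlapped FLAG WT 1, against 6.05% over all. Of the FLAG Rosa-PTBP1 sites, 15.9% (53 of 334, 12.1% to 20.2%) overlapped a PTBP2 WT site, against 23.0% over all sites, and Kcnq3 alone had 4.35% (3 of 69). Of the FLAG Rosa-PTBP1 sites in the loci, 6.29% overlapped FLAG WT 1 and 0.898% FLAG WT 2, against 6.37% and 1.97% over all sites.

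The comparisons implied by the design were made as log2 ratios of shares on the chromosomes filled in both libraries. With replicates in FLAG WT alone no significance test was made, and the 95% intervals cover counting error only. The 3 comparisons with FLAG WT share those 2 libraries, and the remaining 3 reuse FLAG Rosa-PTBP1, PTBP2 Rosa-PTBP1 and PTBP2 WT, so their values stand side by side and are not independent.

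FLAG Rosa-PTBP1 against FLAG WT asks which loci FLAG-PTBP1 held beyond the background. Cacna1c was 1.41 higher on the log2 scale against the mean of the 2 FLAG WT libraries, at 1.37 (1.10 to 1.67) against FLAG WT 1 and 1.44 (0.96 to 2.00) against FLAG WT 2. Kcnq3 was 1.50 higher, at 1.13 (0.74 to 1.56) and 1.99 (1.13 to 3.21) against FLAG WT 1 and 2. Kcnma1 was at -0.88, with -0.99 (-1.29 to -0.67) and -0.76 (-1.26 to -0.17). Cacna2d1 was at -0.64, with -0.95 (-1.32 to -0.57) and -0.24 (-0.94 to 0.64). FLAG WT 2 shares its run with FLAG Rosa-PTBP1, so its values are those within run A. In stacked sites alone Kcnma1 held 206 intervals in FLAG Rosa-PTBP1, against 0 in FLAG WT 1 and 5 in FLAG WT 2. These are counts and not shares, and no fold is read from them. Stacked sites held 87.8% of the 351602 intervals of FLAG Rosa-PTBP1. They held 3.32% of the 88327 of FLAG WT 1 and 39.6% of the 26665 of FLAG WT 2. With the intervals of its own chromosome as the total Kcnma1 was at -1.58, and with sites counted in place of intervals Cacna2d1 was at 0.11. The 4 loci touch 20 windows of 100 kb and 1 strand with 20 or more intervals: 6 were higher in FLAG Rosa-PTBP1 by 2-fold or more, where 23.8% of all such windows were, and 5 were lower, where 36.9% were. The median log2 ratio was -0.31 over these windows and -0.36 over all windows. Cacna1c had 3 of 6 windows higher and 0 lower, Kcnq3 2 of 3 higher and 0 lower, Cacna2d1 1 of 5 higher and 3 lower, and Kcnma1 0 of 6 higher and 2 lower.

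FLAG Rosa-PTBP1 loxP against FLAG WT asks the same in cortex that also carried the loxP alleles. Cacna1c was 1.41 higher against the mean, at 1.39 (1.12 to 1.69) against FLAG WT 1 and 1.44 (0.96 to 2.01) against FLAG WT 2. Kcnq3 was 0.82 higher, at 0.46 (0.04 to 0.91) and 1.30 (0.42 to 2.52). Cacna2d1 was at -0.56, with -0.86 (-1.25 to -0.46) against FLAG WT 1 and -0.17 (-0.88 to 0.71) against FLAG WT 2, and at 0.18 when sites were counted. Kcnma1 was at -1.12, with -1.23 (-1.57 to -0.88) and -1.02 (-1.54 to -0.41) against FLAG WT 1 and 2, and at -1.91 with its own chromosome as the total. In stacked sites alone Kcnma1 held 96 intervals in FLAG Rosa-PTBP1 loxP, against 0 in FLAG WT 1 and 5 in FLAG WT 2. These counts are not shares either: stacked sites held 85.2% of the 265953 intervals of FLAG Rosa-PTBP1 loxP and far fewer intervals in both FLAG WT libraries. Of 21 windows of the loci, 3 were higher by 2-fold or more, where 25.6% of all windows were, and 7 were lower, where 37.6% were. The median was -0.75 over these windows and -0.33 over all. Cacna1c had 1 of 5 windows higher and 0 lower, Kcnq3 2 of 3 higher and 0 lower, Cacna2d1 0 of 5 higher and 2 lower, and Kcnma1 0 of 8 higher and 5 lower.

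PTBP2 WT against FLAG WT compares antibodies in wild-type cortex, and Cacna1c was the locus with a higher share. It was 1.06 higher against the mean, at 1.03 (0.74 to 1.35) against FLAG WT 1 and 1.08 (0.59 to 1.66) against FLAG WT 2. Within run B the ratio against FLAG WT 1 was 0.86 and within run C 0.55, the last from 304 and 8 intervals. Kcnq3 was at -0.56 (-1.09 to -0.02) against FLAG WT 1 and 0.29 (-0.66 to 1.54) against FLAG WT 2. Cacna2d1 was at -1.77 (-2.33 to -1.25) and -1.08 (-1.90 to -0.13), and Kcnma1 at -1.01 (-1.39 to -0.63) and -0.80 (-1.35 to -0.17). In stacked sites alone Kcnma1 held 66 intervals in PTBP2 WT, against 0 in FLAG WT 1 and 5 in FLAG WT 2, and Kcnq3 held 54 in PTBP2 WT against 0 in both FLAG WT libraries. These are counts and not shares, and no fold is read from them. Stacked sites held 75.1% of the 155447 intervals of PTBP2 WT. They held 3.32% of the 88327 of FLAG WT 1 and 39.6% of the 26665 of FLAG WT 2. With its own chromosome as the total Kcnma1 was at -1.84 against the mean. Of 20 windows, 3 were higher by 2-fold or more, where 28.3% of all windows were, and 9 were lower, where 33.2% were. The median was -0.77 over these windows and -0.15 over all. Cacna1c had 2 of 6 windows higher and 3 lower, Kcnq3 1 of 3 higher and 1 lower, Cacna2d1 0 of 4 higher and 2 lower, and Kcnma1 0 of 7 higher and 3 lower.

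**Figure D5:**
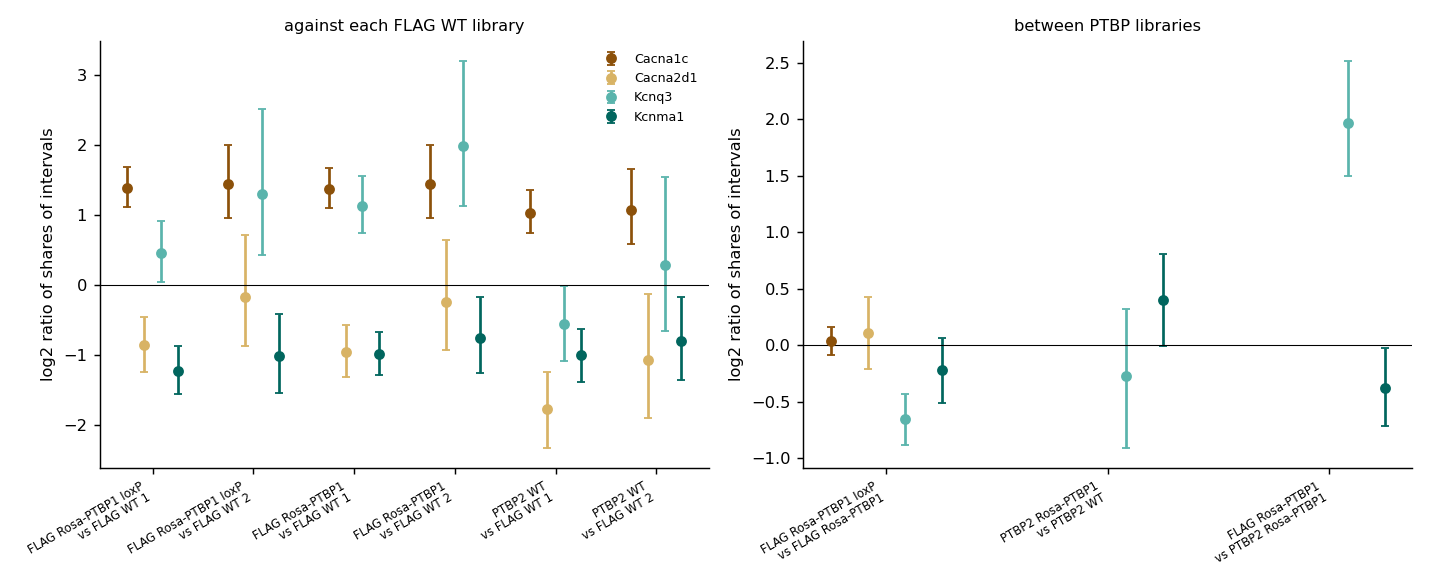
Log2 ratios of the shares of intervals (y axes) for each locus, against each FLAG WT library (left) and between PTBP libraries (right); bars are exact conditional binomial 95% intervals of counting error. Cacna1c lay above 0 in all 6 ratios against FLAG WT, and Kcnq3 had the ratio farthest from 0 between PTBP libraries, at 1.97 for FLAG Rosa-PTBP1 against PTBP2 Rosa-PTBP1.

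FLAG Rosa-PTBP1 loxP against FLAG Rosa-PTBP1 asks whether FLAG-PTBP1 sites differed with the PTBP2 loxP alleles. Kcnq3 was the locus whose counting interval excluded 0. Its share was 0.936 per 1000 in FLAG Rosa-PTBP1 loxP and 1.47 in FLAG Rosa-PTBP1, on the 19 chromosomes filled in both, a log2 ratio of -0.65 (-0.88 to -0.43). Cacna1c was at 0.04 (-0.09 to 0.16), Cacna2d1 at 0.11 (-0.21 to 0.43) and Kcnma1 at -0.22 (-0.51 to 0.06). The Kcnq3 ratio was -0.04 when sites were counted, from 51 loxP sites and 69 FLAG Rosa-PTBP1 sites, and -0.94 when only stacked sites were counted. The part that depth plays in how many intervals a site collects was not tested. Both libraries came from run A. Of 19 windows, 2 were higher in the loxP library by 2-fold or more, where 13.6% of all windows were, and 3 were lower, where 21.7% were. The median was -0.24 over these windows and -0.11 over all.

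Single sites differed both ways between the loxP and FLAG Rosa-PTBP1 libraries. Among 28 Cacna1c sites with 20 or more intervals in the pair, the highest ratios were at 118911428 to 118911557, with 18 intervals in FLAG Rosa-PTBP1 loxP and 9 in FLAG Rosa-PTBP1 (log2 1.46, 0.27 to 2.83), and at 118924850 to 118924980, with 12 in the loxP library and 8 in FLAG Rosa-PTBP1 (1.05, -0.33 to 2.58). The lowest were at 118587806 to 118587934, listed at 0 in the loxP library and with 22 intervals in FLAG Rosa-PTBP1, and at 118961573 to 118961736, with 4 in the loxP library and 26 in FLAG Rosa-PTBP1 (-2.06, -4.18 to -0.68). The last lies inside the 4-kb cluster, and PTBP2 WT held 18 intervals there. In Kcnq3 the highest of 8 such sites were at 66114224 to 66114329, with 13 in the loxP library and 15 in FLAG Rosa-PTBP1 (0.30, -0.90 to 1.46), and at 66114471 to 66114539, with 11 in the loxP library and 13 in FLAG Rosa-PTBP1 (0.26, -1.05 to 1.53). The lowest were at 66102510 to 66102702, with 8 in the loxP library and 28 in FLAG Rosa-PTBP1 (-1.25, -2.66 to -0.14), and at 66113306 to 66113428, with 6 in the loxP library and 22 in FLAG Rosa-PTBP1 (-1.30, -2.97 to -0.03). The 4 Cacna2d1 sites of this size had ratios between -0.55 and 0.62, each with an interval that included 0. Of the 2 in Kcnma1, that at 24343567 to 24343654 had 16 in the loxP library and 7 in FLAG Rosa-PTBP1 (1.63, 0.33 to 3.21) and that at 24710422 to 24710489 had 9 in the loxP library and 13 in FLAG Rosa-PTBP1 (-0.01, -1.44 to 1.30). These sites are the extremes of their loci, so their intervals describe counting error and not a test.

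PTBP2 Rosa-PTBP1 against PTBP2 WT asks whether PTBP2 sites differed with the transgene and Cre, and could be read only at the 2 potassium channel loci. Kcnq3 held 0.529 per 1000 in PTBP2 Rosa-PTBP1 and 0.645 in PTBP2 WT on 13 filled chromosomes, a log2 ratio of -0.28 (-0.91 to 0.32). Kcnma1 held 1.43 in PTBP2 Rosa-PTBP1 and 1.08 in PTBP2 WT, a ratio of 0.40 (0.00 to 0.81, with the lower bound just under 0). Within run B these were -0.35 and 0.22, and within run C -0.30 and 0.34. Counting only stacked sites put Kcnma1 at -0.08 and Kcnq3 at 0.26, so neither direction held under both counts. The Kcnq3 site at 172 kb had 16 intervals in PTBP2 Rosa-PTBP1 and 31 in PTBP2 WT (-0.32, -1.31 to 0.57). Of 7 windows, 1 was higher in PTBP2 Rosa-PTBP1 by 2-fold or more, where 17.0% of all windows were, and 0 were lower, where 17.5% were. The median was 0.11 over these windows and 0.01 over all.

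FLAG Rosa-PTBP1 against PTBP2 Rosa-PTBP1 compares the 2 proteins in 1 genotype. Kcnq3 held 2.32 intervals per 1000 in FLAG Rosa-PTBP1 and 0.583 in PTBP2 Rosa-PTBP1 on the 12 chromosomes filled in both, 3.97-fold higher (log2 1.97, 1.50 to 2.52). This ratio was 2.74 with sites counted and 1.34 with stacked sites only. Kcnma1 held 1.21 in FLAG Rosa-PTBP1 and 1.57 in PTBP2 Rosa-PTBP1 (log2 -0.38, -0.71 to -0.02), and was at 0.26 when only stacked sites were counted. Kcnq3 sites differed in their ratio. Those at 66101381 to 66101625 and 66113442 to 66113620 had 38 and 34 intervals in FLAG Rosa-PTBP1 and were listed at 0 in PTBP2 Rosa-PTBP1. The site at 172 kb had 70 in FLAG Rosa-PTBP1 and 16 in PTBP2 Rosa-PTBP1 (0.24, -0.52 to 1.16), and that at 66102510 to 66102702 had 28 in FLAG Rosa-PTBP1 and 7 in PTBP2 Rosa-PTBP1 (0.07, -1.08 to 1.58). The 2 libraries share no sequencing run, so antibody and run cannot be told apart. Of 8 windows, 3 were higher in FLAG Rosa-PTBP1 by 2-fold or more, where 26.6% of all windows were, and 2 were lower, where 25.5% were. The median was 0.36 over these windows and 0.02 over all.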

How the data were processed

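Per the submitters' processing notes, reads were aligned with Bowtie to mm9 (version not stated). Each deposited list gives the chromosome, start, end, strand and read name of read intervals that the authors called significant, per the file headers, with no score or count. The sources used here do not give the caller, its level, its background or how duplicates were handled. An interval can stand on several lines (1.06 to 4.26 lines per interval by library), so lines were collapsed to distinct intervals.

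Shares of intervals were compared as log2 ratios with a pseudocount of 0.5 and an exact conditional binomial 95% interval. Shares have exact Clopper-Pearson intervals, and 3 counts set the limit for a 0. PCR copies are not independent molecules, so intervals and limits cover counting error only. A chromosome counted as sparse where it held under 0.5 times the median share of sites of the other libraries. Windows were called past a 2-fold ratio, which was checked on simulated windows. All 4 loci are named; the named sites are the 5 fullest per locus over the PTBP libraries, and for each pair of PTBP libraries the 2 highest and 2 lowest ratios among sites with 20 or more intervals. The site at 118594204 in Cacna1c was chosen after their values were seen, as were the densest 4-kb stretches. The members and lists were chosen with earlier results of these data known. Other channel genes and promoters were not analysed here, since no mm9 annotation was used. Python 3.11.15, pandas 2.3.3, NumPy 2.4.6, SciPy 1.17.1 and matplotlib 3.10.9 were used.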

Additional observations from a re-analysis of the deposited data

How the results depend on the processing

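The values below are log2 ratios over the loci together. FLAG Rosa-PTBP1 against FLAG WT was 0.63, and 1.80 with stacked sites only. FLAG Rosa-PTBP1 loxP against FLAG WT was 0.48, 0.92 with sites counted and 1.55 with stacked sites only. PTBP2 WT against FLAG WT was 0.07, 1.21 with stacked sites only and -0.53 within run C. The values with stacked sites only against FLAG WT rest on 21 FLAG WT intervals over the loci and are imprecise. FLAG WT 1 gave 5 of the 21, all in Cacna2d1. FLAG Rosa-PTBP1 loxP against FLAG Rosa-PTBP1 was -0.12, and 0.064 with sites counted. With all chromosomes in the denominator, PTBP2 Rosa-PTBP1 against PTBP2 WT was 0.64 in place of 0.18, and FLAG Rosa-PTBP1 against PTBP2 Rosa-PTBP1 0.32 in place of 0.71. Leaving out each FLAG WT library in turn gave 0.46 to 0.83 for FLAG Rosa-PTBP1, 0.32 to 0.67 for FLAG Rosa-PTBP1 loxP and -0.10 to 0.25 for PTBP2 WT. With stacked sites only, Kcnma1 was at 0.26 in FLAG Rosa-PTBP1 against PTBP2 Rosa-PTBP1, a change of sign, and the cause was not tested. Against FLAG WT the same count gave 0.91 in FLAG Rosa-PTBP1, 0.30 in FLAG Rosa-PTBP1 loxP and 0.72 in PTBP2 WT, but FLAG WT 1 held 0 such intervals and FLAG WT 2 held 5, so these 3 values rest on the pseudocount and give no fold. The 4 Kcnma1 values just given with stacked sites only were classed as reversed, and their main counting intervals excluded 0. Over single loci and overlaps, 117 other values were classed as the same as the main value and 46 as moved. A value classed as moved could still lie inside the counting intervals. Cacna1c in FLAG Rosa-PTBP1 against FLAG WT was classed so at 1.46 with sites counted. Its main intervals were 1.10 to 1.67 against FLAG WT 1 and 0.96 to 2.00 against FLAG WT 2. Among the values classed as the same or as moved, those that changed sign had a main counting interval that included 0, in full or against 1 FLAG WT library. Cacna1c kept a higher share than FLAG WT in FLAG Rosa-PTBP1 loxP, FLAG Rosa-PTBP1 and PTBP2 WT under each alternative run. No paired analysis was possible because only the FLAG WT libraries carry replicate numbers. Counts as low as the 9 Kcnq3 intervals of FLAG WT 2 limit the precision of ratios against that library.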
